A study of Mus musculus with 32 samples.

Results

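The loss of E-cadherin was examined as a single genotype effect over all tumours of the series: 16 primary mouse melanomas labelled ΔEcad were compared with 16 labelled Ecad, with sex as a term of the model. Members were chosen by the genotype in their labels, and these 32 tumours are all the tumours of the series, 8 males and 8 females of each genotype. Every mouse carried the transgene Tyr::NrasQ61K, a mutant NRAS oncogene under the tyrosinase promoter, 1 null allele of the tumour suppressor gene Cdkn2a, and was homozygous for a floxed allele of Cdh1 (Cdh1F/F), the gene of E-cadherin. Ecad mice had no further transgene, so their Cdh1 was intact. ΔEcad mice also carried a Cre transgene driven by the tyrosinase promoter according to the methods of the study, whereas the label of these tumours repeats an NRAS transgene in that place. Because the promoter of both transgenes is active in melanocytes, Cdh1 should remain in keratinocytes and other host cells of a ΔEcad tumour. Tumours were sequenced as bulk tissue from mice backcrossed to C57BL/6J, and their ages were not given in the sources used here. Nothing in the labels links tumours to litters, so p-values measure the spread between tumours.

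E-cadherin is the classical cadherin of epithelia. Its extracellular part binds E-cadherin on the neighbouring cell, and its cytoplasmic tail binds p120 catenin and beta-catenin, which joins it through alpha-catenin to actin. In skin, E-cadherin holds melanocytes to keratinocytes, and melanomas often replace it with N-cadherin. Beta-catenin released from cadherin can also act with TCF/LEF factors on Wnt target genes.

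Each library held 24036333 to 63923086 counts, and 17717 of 50600 genes were tested. Levels are given as TPM, a unit of transcript abundance scaled for gene length and library total. Fold changes are given as log2 of ΔEcad over Ecad with their standard error (SE), from the edgeR quasi-likelihood test on counts. Tumours were labelled as melanomas, and melanocytic genes were high in all but 1 of them. Sox10, the neural crest and melanocyte transcription factor, was at 346 to 2229 TPM in the other 31 tumours and at 0.49 TPM in ΔEcad male 7, whose 12 melanocytic markers summed to 38.4 TPM against at least 6817 TPM in any other. The library labelled ΔEcad male 2 had no counts of 4 Y-linked genes and 6.41 TPM of Xist, and ΔEcad female 1 had 92 counts of those Y-linked genes. All 3 libraries were kept under their labels. ΔEcad female 3 had the lowest summed level of the endothelial (1.87 TPM), macrophage (39.9 TPM) and red blood cell (0 TPM) markers, and ΔEcad males 1 and 2 had the lowest mitochondrial shares of counts, 0.256% and 0.891%. Fold changes without some of these libraries are given beside the results that rest on them.

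Cdh1 (ENSMUSG00000000303, chromosome 8, 106603351 to 106670246, GRCm38), the targeted gene, was the first measure of the genotype. Cdh1 was at 2.16, 82.5 and 282 TPM (lowest, median and highest) in the 16 Ecad tumours and at 0.17, 7.36 and 143 TPM in the 16 ΔEcad tumours. In 14 of 16 ΔEcad tumours Cdh1 was below the Ecad median, but the ranges overlapped: only 2 ΔEcad tumours were below every Ecad tumour and 5 Ecad tumours above every ΔEcad tumour. The pooled log2 fold change was -1.66 (SE 0.79, unadjusted p 0.0438), and the edgeR adjusted p over all genes was 0.670. Medians were 145 TPM in Ecad males and 3.29 TPM in ΔEcad males, while Ecad females had 30.6 TPM and ΔEcad females 46.7 TPM. Fitted separately, the log2 fold change was -3.33 in males and -0.00 in females, so the pooled value lay between effects of unequal size (edgeR interaction unadjusted p 0.0134, adjusted p 0.154). Without ΔEcad male 2, ΔEcad male 7 and ΔEcad female 1 the pooled value was -1.47 (unadjusted p 0.0731).

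Markers of keratinocytes, which express Cdh1 and in which the tyrosinase promoter is not active, also differed between the groups, and their part in the Cdh1 result was not tested. The summed level of 14 keratinocyte markers ranged from 6.49 to 26466 TPM in Ecad tumours and from 8.13 to 43272 TPM in ΔEcad tumours. Its median was 5880 TPM in Ecad males against 548 TPM in ΔEcad males, and 11 TPM in Ecad females against 7255 TPM in ΔEcad females. With the keratinocyte and melanocytic scores (mean log2 CPM of each list, where CPM is counts scaled to library size) as covariates, the log2 fold change of Cdh1 was -2.93 (unadjusted p 3.32e-06, edgeR adjusted p 0.0588). Not all Cdh1 went with these markers: Ecad female 1 had 151 TPM of Cdh1 and 10.1 TPM of keratinocyte markers. Counts were summed over the whole gene, so a transcript without the floxed exons would still be counted, and in bulk samples fewer cells of a type cannot be told apart from less RNA per cell.

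**Figure D1:**
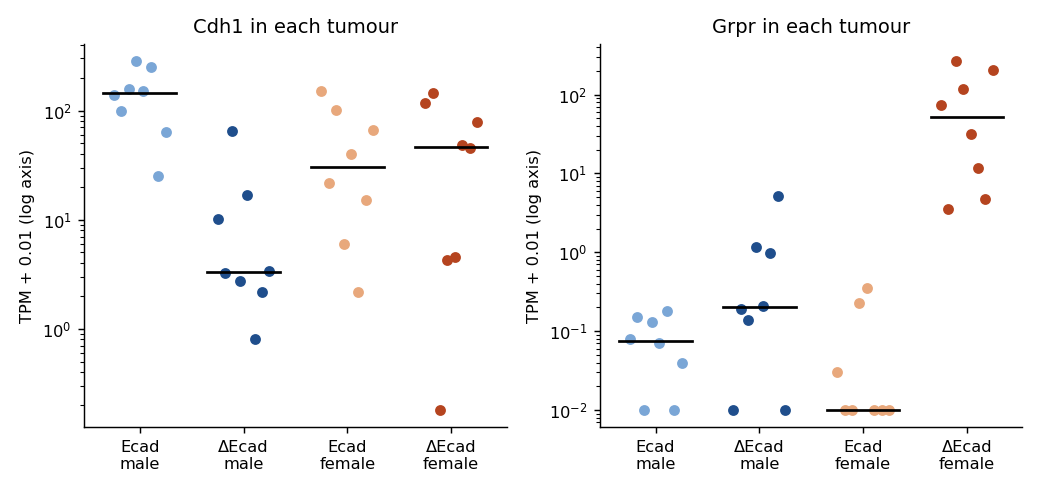
TPM of Cdh1 (left) and Grpr (right) in each of 32 tumours, plotted as TPM + 0.01 on log axes, with 8 tumours per group and the group median as a bar. For Cdh1 the highest ΔEcad male, at 65.2 TPM, lies above 2 Ecad males and the female groups overlap widely. Grpr is at most 0.34 TPM in every Ecad tumour and at least 3.52 TPM in every tumour labelled ΔEcad female. ΔEcad male 2, without Y-linked counts, is at 0.18 TPM of Grpr.

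Grpr (ENSMUSG00000031364, chromosome X, 163513904 to 163549677, minus strand, GRCm38) was the only gene called in the pooled comparison, with calls requiring both an edgeR adjusted p below 0.05 and a log2 fold change beyond 1 in size. It encodes the gastrin-releasing peptide receptor, a receptor coupled to Gq proteins that is bound by bombesin-like peptides. Grpr was at 0, 0.025 and 0.34 TPM (lowest, median and highest) in Ecad tumours, where 11 of 16 tumours had 3 counts or fewer. In ΔEcad tumours it was at 0, 4.09 and 263 TPM, with 0 to 9444 counts. Of the 16 ΔEcad tumours, 14 were above the Ecad median and 11 above every Ecad tumour, more than for any other gene tested. The pooled log2 fold change was 7.12 (SE 1.25, unadjusted p 2.53e-06, edgeR adjusted p 0.0449). By the labels, Grpr was at 0, 0.19 and 5.14 TPM in ΔEcad males and at 3.52, 52.3 and 263 TPM in ΔEcad females. ΔEcad male 2, whose sex label its lack of Y-linked counts goes against, had 0.18 TPM. If that tumour was female, not every ΔEcad female had a high level. The log2 fold change was 3.63 in males and 10.2 in females (edgeR interaction unadjusted p 0.000262, adjusted p 0.0526). The 11 ΔEcad tumours above every Ecad tumour were thus the 8 labelled female and 3 labelled male, ΔEcad males 4, 6 and 7. The edgeR call was lost without any 1 of 22 of the 32 tumours, with adjusted p from 0.0166 to 0.199 over the 32 omissions, and the unadjusted p stayed between 9.25e-07 and 2.12e-05. Without ΔEcad male 2, ΔEcad male 7 and ΔEcad female 1 the log2 fold change was 7.27 (unadjusted p 2.42e-05, edgeR adjusted p 0.436).

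The sequence upstream of Grpr is shown because it belongs to the single called gene, and it was searched for motifs of the factors behind the Wnt and oestrogen receptor lists below. RefSeq gives the 250 bases before its start at chrX:163549737-163549986 (GRCm38.p6, minus strand, 5′ to 3′), with matches to the TCF/LEF core CTTTG, on either strand, in capitals.

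Grpr: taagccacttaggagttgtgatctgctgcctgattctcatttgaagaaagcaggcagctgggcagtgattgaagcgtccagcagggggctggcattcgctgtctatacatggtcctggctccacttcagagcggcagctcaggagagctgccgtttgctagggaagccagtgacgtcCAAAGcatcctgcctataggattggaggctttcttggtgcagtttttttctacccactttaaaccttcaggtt

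The core was present once, on the other strand, 73 to 69 bases before the start, and 48.8% of 27025 windows of this length held it. The oestrogen receptor motif GGTCA, searched on both strands, was not in this window and was present in 34.9% of windows. These matches are a description of the letters and not of bound sites.

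Across genes, the pooled comparison called 1 gene higher in ΔEcad tumours (0.00564% of those tested) and 0 lower (0%). An unadjusted p under 0.05 was reached by 877 genes with a positive log2 fold change (4.95%) and 415 with a negative one (2.34%), together 7.29%, where 5% of 17717 genes is 886. The same comparison by DESeq2 called 31 genes higher and 14 lower, and limma voom with quality weights called 1 in each direction. Fold changes were above 0 for 58.6% of genes and below 0 for 41.4%. The median log2 fold change over all genes was 0.07 and the median SE 0.31. The common dispersion was 0.688, a wide spread between tumours of a genotype. For no gene did the TPM ranges of the 16 ΔEcad and 16 Ecad tumours fail to overlap (0%).

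**Figure D2:**
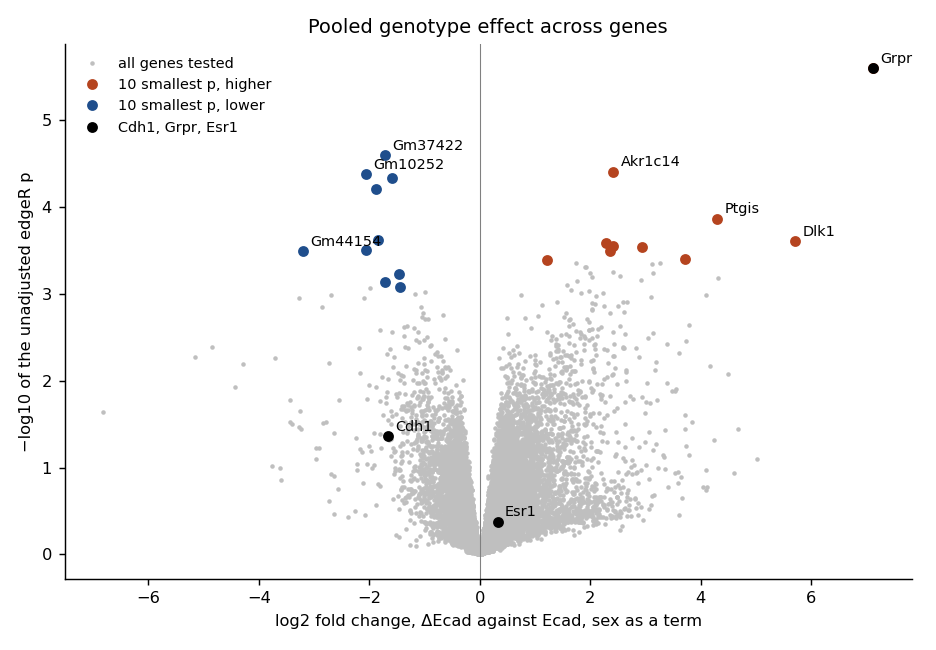
Pooled log2 fold change (ΔEcad against Ecad, sex as a term) on the horizontal axis and −log10 of the unadjusted edgeR p on the vertical axis for 17717 genes. Coloured points are the 10 genes of smallest p on each side, and Cdh1, Grpr and Esr1 are in black; Grpr, at 7.12, is the only called gene.

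The 10 genes with the smallest p and a positive fold change were Grpr and, none of them called, Akr1c14, Ptgis, Dlk1, Pcdh19, Foxc2, Sh3rf3, Lhx6, Retnla and Efhd1, with edgeR adjusted p from 0.166 to 0.397. All 10 were protein-coding, as were 85.1% of all genes tested, and had a positive fold change in each sex. Of the 877 genes with a positive fold change and an unadjusted p under 0.05, 95.9% had the same sign in both sexes. Akr1c14, an aldo-keto reductase that acts on steroids, was at 0, 0.25 and 0.66 TPM (lowest, median and highest) in Ecad tumours and 0.12, 0.905 and 5.15 TPM in ΔEcad tumours. Of the ΔEcad tumours, 10 were above every Ecad tumour, the highest number after Grpr. Its log2 fold change was 2.41 (SE 0.51, adjusted p 0.166 by edgeR), with 1.26 in males and 3.58 in females. DESeq2 called Akr1c14, as did edgeR with the mean of the within-sex effects. Efhd1, a calcium-binding mitochondrial protein, was at 0.66, 1.80 and 5.08 TPM in Ecad tumours and 1.30, 3.46 and 15.1 TPM in ΔEcad tumours, a log2 fold change of 1.21 (SE 0.31, adjusted p 0.397 by edgeR). The effects in males (1.16) and females (1.25) were close, and 12 of 16 ΔEcad tumours were above the Ecad median. DESeq2 called Efhd1 too. Retnla, a secreted protein made by alternatively activated macrophages, was at 0, 0.905 and 12.7 TPM in Ecad tumours and 0.30, 2.71 and 85.8 TPM in ΔEcad tumours, with 5 ΔEcad tumours above every Ecad tumour (log2 fold change 3.72, SE 0.94).

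The other 6 of these genes had their highest levels in the same pair of tumours. Ptgis, the prostacyclin synthase, reached 112 TPM in ΔEcad male 7 and 46.9 TPM in ΔEcad female 3, while its median was 0.35 TPM over Ecad tumours and 0.51 TPM over ΔEcad tumours. Dlk1, an imprinted growth regulator related to Notch ligands, reached 210 and 51.6 TPM in those tumours, against medians of 0.09 and 0.11 TPM. Foxc2, a transcription factor of mesenchyme and lymphatics, reached 35.4 and 29.8 TPM there, with medians of 0.90 and 1.27 TPM. Pcdh19, a protocadherin, reached 25.8 TPM in ΔEcad female 3 and 15.2 TPM in ΔEcad male 7. Sh3rf3 and Lhx6, the latter a LIM homeobox factor, were also highest in these tumours. The medians of the genotypes were therefore much closer than the fold changes of 2.28 to 5.71 (log2) from the model. Without both tumours, the log2 fold change was 0.94 for Ptgis, 0.80 for Dlk1, 0.57 for Pcdh19, 0.83 for Foxc2, 1.49 for Sh3rf3 and 0.99 for Lhx6. Akr1c14, Retnla and Efhd1 then had 2.10, 3.76 and 1.15. Over the 877 genes with a positive fold change and an unadjusted p under 0.05, 402 (45.8%) had their highest level in ΔEcad male 7 or ΔEcad female 3, as did 19.3% of all genes tested. ΔEcad male 1 was the highest tumour for another 168 (19.2%), against 4.23% of all genes tested. A positive fold change favours a highest level in a ΔEcad tumour, so part of both gaps comes with the selection. Akr1c14, Ptgis, Pcdh19, Foxc2, Sh3rf3, Lhx6 and Efhd1 overlap another annotated gene, and the counting was not stated to use strand, so their values are uncertain.

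**Figure D3:**
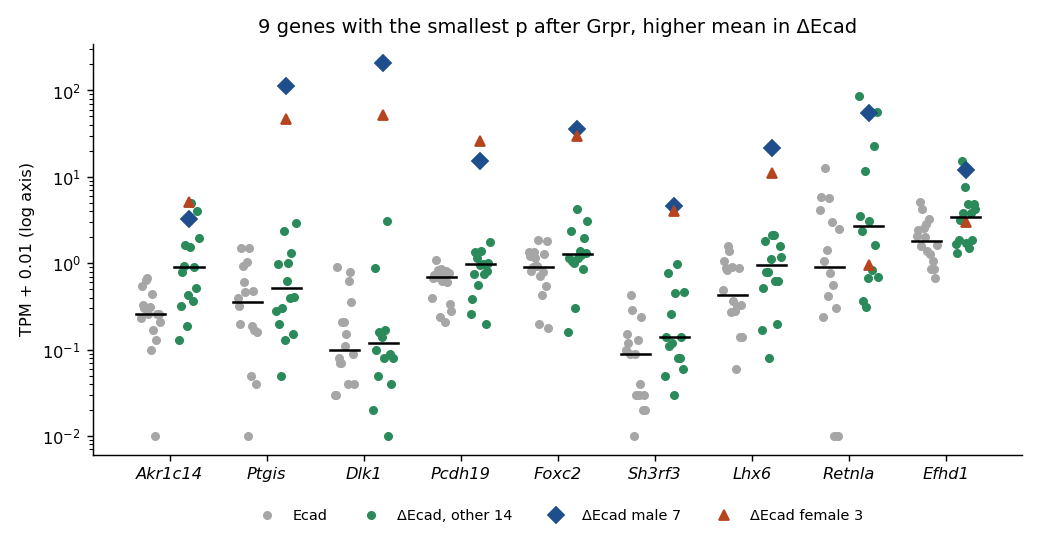
TPM + 0.01 (log axis) of the 9 genes with the smallest p after Grpr and a positive fold change, in 16 Ecad tumours (grey) and 16 ΔEcad tumours, with the median of each genotype as a bar. ΔEcad male 7 (diamond) and ΔEcad female 3 (triangle) hold the 2 highest values of Ptgis, Dlk1, Pcdh19, Foxc2, Sh3rf3 and Lhx6.

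The 10 genes with the smallest p and a negative fold change were of another kind. None was protein-coding, against 61.7% of the 415 genes with a negative fold change and an unadjusted p under 0.05. None was called by edgeR, with adjusted p from 0.166 to 0.411. DESeq2 did call some of them, including Gm10252, 4930473A02Rik, B130046B21Rik and Gm17122. The 10 genes were Gm37422, Gm10252, 4930473A02Rik, Gm26811, B130046B21Rik, Gm17122, Gm44154, Gm26648, Gm26658 and Gm25193. Of these, 8 overlap a protein-coding gene on the opposite strand, Gm25193 lies in a gene of the same strand, and Gm44154 overlaps none. Gm10252 (chromosome 7, GRCm38), which lies across Ftl1, the gene of the ferritin light chain, was at 1.70, 17.6 and 44.7 TPM (lowest, median and highest) in Ecad tumours and at 0.68, 2.94 and 9.76 TPM in ΔEcad tumours. Its log2 fold change was -2.05 (SE 0.43, adjusted p 0.166 by edgeR), and 14 of 16 Ecad tumours were above every ΔEcad tumour, the most for any gene tested. Ecad females 1 and 2 were the other 2, at 1.89 and 1.70 TPM. Ftl1 itself had a log2 fold change of -0.14 (SE 0.26). Gm37422, opposite to Smyd2, was at 0.08, 0.33 and 1.11 TPM in Ecad tumours and at 0.01, 0.115 and 0.26 TPM in ΔEcad tumours (log2 fold change -1.73, SE 0.35, adjusted p 0.166 by edgeR). 4930473A02Rik, opposite to Ptpra and Mrps26, was at 0.29, 0.98 and 2.35 TPM against 0.10, 0.235 and 0.63 TPM, and 9 ΔEcad tumours were below every Ecad tumour. B130046B21Rik, opposite to Prkag1 and Ddn, was at 0, 0.39 and 0.95 TPM against 0, 0.085 and 0.21 TPM.

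These differences were spread over most tumours and had the same sign in both sexes. Selection by the pooled p favours that agreement. Of the 415 genes with a negative fold change and an unadjusted p under 0.05, 408 (98.3%) shared it. In 9 of the 10 genes every ΔEcad tumour was below the Ecad median. The male and female log2 fold changes were -1.90 and -1.56 for Gm37422, -2.34 and -1.77 for Gm10252, and -1.49 and -1.71 for 4930473A02Rik, and the unadjusted interaction p over the 10 genes was 0.324 (Gm26648) to 0.969 (Gm26658). Without ΔEcad male 7 and ΔEcad female 3 the 10 log2 fold changes were -3.06 to -1.41, all at an unadjusted p under 0.05. Over all genes tested, at least 10 of 16 Ecad tumours were above every ΔEcad tumour for 14 genes, of which 6 are among those 10 and 3 were protein-coding. At least 10 ΔEcad tumours were above every Ecad tumour for 2 genes, Grpr and Akr1c14. The 3 protein-coding ones, chosen once their values were known, were Mafk, a small Maf transcription factor (log2 fold change -0.66), Tomt, a catechol methyltransferase (SE 0.30, unadjusted p 0.00193), and Spns1, a lysosomal lipid transporter (-0.36). Levels of these genes were low: the median count over tumours was 4.0 to 71.5 for the 10 genes with the smallest p.

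A summary of non-coding genes of this kind moved with these genes. For 95 non-coding genes that lie inside a well-expressed protein-coding gene on the opposite strand, the log2 ratio of their counts to those of the surrounding gene was taken relative to the median tumour. The median over the pairs, termed the opposite-strand measure, was 0.29 in Ecad tumours (-0.78 to 0.63) and -0.33 in ΔEcad tumours (-0.96 to 0.12). Of 16 Ecad tumours 12 were above every ΔEcad tumour, and the lowest Ecad tumours were Ecad females 1, 2 and 3, at -0.78, -0.55 and -0.18. Taken instead as counts relative to those of the surrounding genes, the ΔEcad median was also the lower one. By that version, however, ΔEcad males 1 and 2 were above every Ecad tumour. For 141 pairs on the same strand, the median log2 ratio was 0.25 in Ecad tumours (-1.24 to 1.61) and -0.09 in ΔEcad tumours (-2.39 to 0.78). The direction was thus not limited to the opposite strand. The genes overlapped by the 10 non-coding genes had log2 fold changes of -0.48 to 0.27. With the measure as a covariate, the log2 fold change of Gm10252 was -0.33 and that of Gm37422 -0.55, 8 of the 10 fold changes were smaller in size than without it and 4 had an unadjusted p under 0.05. The measure was built after these genes were seen, and its pairs include Gm17122 and Gm26648. It differs between the genotypes, so as a covariate it can take up a genotype effect on such genes. Why it differs was not tested. No label names a batch.

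**Figure D4:**
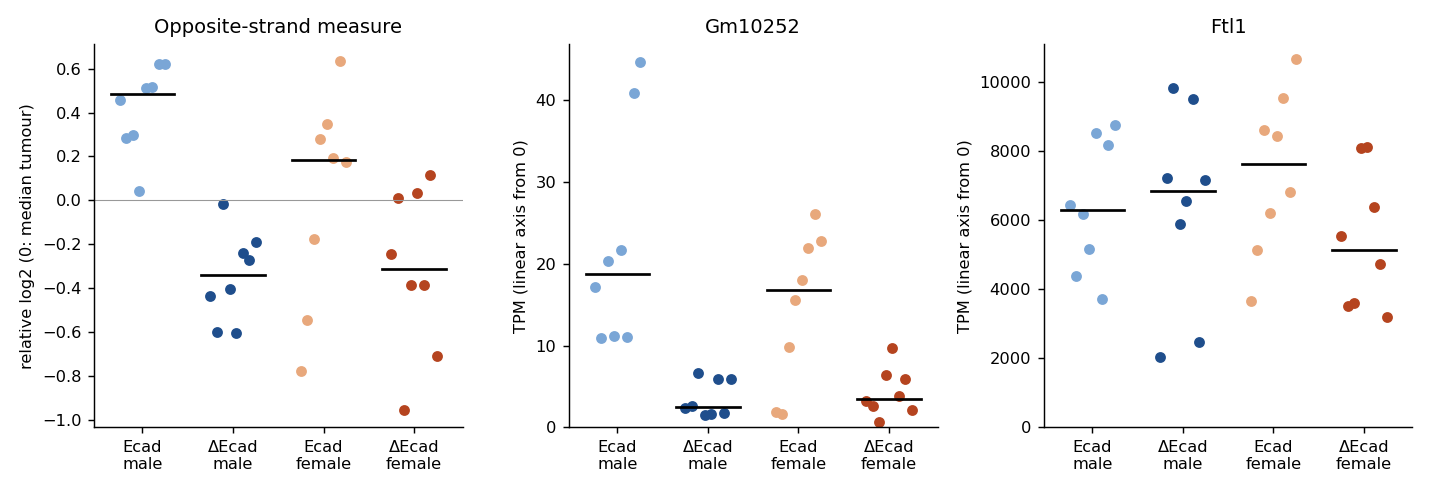
The opposite-strand measure (left, relative log2, 0 is the median tumour), Gm10252 (middle, TPM) and Ftl1 (right, TPM), the gene it overlaps, in 8 tumours per group with the group median as a bar. Most Ecad tumours are high and ΔEcad tumours low for the measure and for Gm10252. For the measure, Ecad females 1, 2 and 3 (-0.78, -0.55 and -0.18) and Ecad male 4 (0.04) lie among the ΔEcad tumours. Ecad females 1 and 2 do so for Gm10252. Ftl1, with a range of 3657 to 10661 TPM in Ecad tumours against 2047 to 9831 TPM in ΔEcad tumours, overlaps widely.

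Gene lists were described by their members and their median, where a member is said to pass if its unadjusted p was under 0.05, to be read against the 4.95% and 2.34% of all genes that did so in each direction and the median over all genes of 0.07. Grpr was the only called member of any list. Lists of the skin around the tumour had the most positive medians, although 0 of 14 keratinocyte genes passed, with a median log2 fold change of 1.56. That median was -1.70 in males and 5.29 in females, and all 14 members had opposite signs in the sexes, as did 57.9% of all genes. Ivl, a protein of the cornified envelope, was at 3.53 (SE 2.17) and Sfn, the 14-3-3 protein of stratified epithelia, at 1.27 (SE 1.17). Of 13 hair follicle genes 3 passed, the hair keratins Krt34 (3.54, SE 1.34), Krt33a (3.35, SE 1.54) and Krt72 (4.24, SE 2.07). Their highest levels were in ΔEcad female 2, and they were at 0 to 0.02 TPM in Ecad females. The median of that list was -0.16 in males and 8.40 in females, and 9 of 13 members had opposite signs in the sexes. Like the keratinocyte genes, the 11 skeletal muscle and 9 adipocyte genes had opposite signs in the sexes in every member, with pooled medians of 0.19 and 1.21. A pooled fold change of the keratinocyte, muscle and adipocyte lists is an average of effects in opposite directions.

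The 10 fibroblast genes, 6 of which passed with a positive fold change, had the same direction in both sexes in 9 members, with medians of 1.14 pooled, 0.81 in males and 1.41 in females. Thy1, a surface glycoprotein of fibroblasts and T cells, was at 11.5, 73.3 and 148 TPM (lowest, median and highest) in Ecad tumours and 22.5, 105 and 1757 TPM in ΔEcad tumours (log2 fold change 1.57, SE 0.42, adjusted p 0.411 by edgeR). Lum, the matrix proteoglycan lumican, was at 2.46, 18.2 and 63.8 TPM against 0.11, 39.5 and 457 TPM (log2 fold change 1.45, SE 0.53). Pdgfra, the receptor for platelet-derived growth factors, had nearly equal medians, 6.01 and 6.09 TPM, and a log2 fold change of 1.70 (SE 0.60). The highest levels of Thy1, Lum and Pdgfra were in ΔEcad male 7, which lacked melanocytic genes. Without ΔEcad male 7 and ΔEcad female 3, the log2 fold change was 0.77 for Thy1, 1.07 for Lum and 0.04 for Pdgfra. The summed level of the list ranged from 108 to 4560 TPM in Ecad tumours and from 94.1 to 10189 TPM in ΔEcad tumours. The highest was ΔEcad female 3, where Lum was at 0.11 TPM and the endothelial, macrophage and red blood cell markers were at their lowest.

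Melanocytic genes had a median log2 fold change of -0.48, with 11 of 12 below 0 and none at an unadjusted p under 0.05. Gpr143, a melanosomal receptor, was at 10.9, 51.1 and 300 TPM in Ecad tumours and 0.04, 23.5 and 79.4 TPM in ΔEcad tumours (log2 fold change -1.05, SE 0.55). Pmel, the fibril protein of melanosomes, was at -0.89 (SE 0.69), Mitf, the transcription factor of the lineage, at -0.47 (SE 0.39) and Dct, a melanin synthesis enzyme, at -0.53 (SE 0.52). Each of these differences was within 2 SE. ΔEcad male 7 was the lowest ΔEcad male for all 4, and without it they were at -0.96, -0.81, -0.41 and -0.45. Without ΔEcad male 2 and ΔEcad female 1 as well, Gpr143 was at -1.18 (unadjusted p 0.0221) and the other 3 at -0.79 to -0.33. Among immune and vascular lists, Ncr1, an activating receptor of natural killer cells, was the single T and NK cell gene of 13 that passed (2.08, SE 0.67, median levels 0.145 and 0.46 TPM). Cldn5, the claudin of endothelial tight junctions, was the single endothelial gene of 10 (1.08, SE 0.48, median levels 29.7 and 37.6 TPM). No gene of the macrophage, neutrophil, B and plasma cell, Schwann or red blood cell lists passed, with list medians from -0.32 (neutrophil) to 0.87 (red blood cell). Of 3 salivary gland genes tested, Amy1 and Bpifa2 had fold changes of -4.84 and -6.82, and both rested on Ecad female 3, at 5037 and 8313 TPM, against genotype medians of 0.13 to 1.61 TPM.

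**Figure D5:**
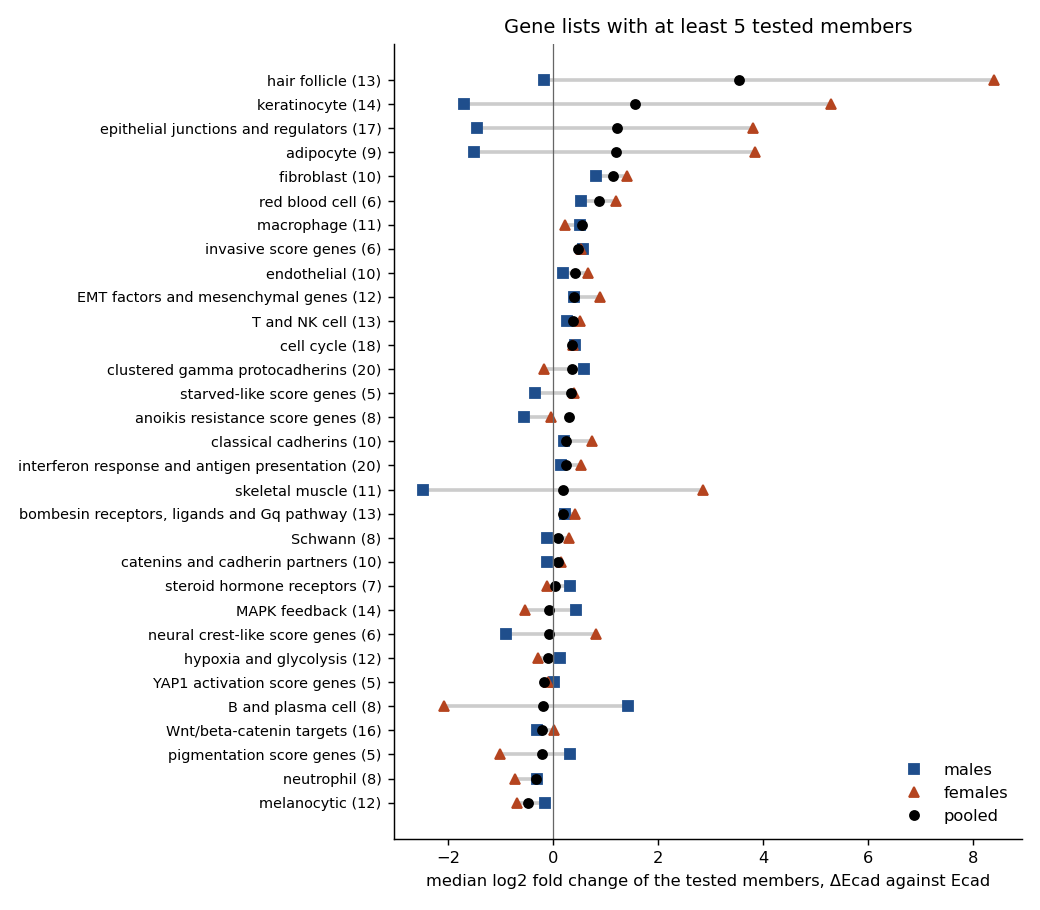
Median log2 fold change (ΔEcad against Ecad) of the tested members of each gene list with at least 5 of them, with their number in brackets, for the pooled comparison (circles), males (squares) and females (triangles). Keratinocyte, hair follicle, junction, adipocyte and muscle lists lie far apart in the sexes, at -1.70 and 5.29 for keratinocyte genes, while fibroblast genes lie at 0.81 and 1.41.

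The classical cadherin list of 10 genes also held Cdh13, which is not a classical cadherin. On that list, Cdh1 was the 1 gene with a negative fold change to pass, and 2 others passed with a positive one. Cdh11, the cadherin of osteoblasts and mesenchyme, was at 0.23, 2.14 and 6.19 TPM (lowest, median and highest) in Ecad tumours and 0.15, 4.33 and 140 TPM in ΔEcad tumours. Its log2 fold change was 2.54 (SE 0.67, adjusted p 0.404 by edgeR), close in males (2.34) and females (2.73). Of the ΔEcad tumours 11 were above the Ecad median and 5 above every Ecad tumour, with 140 TPM in ΔEcad female 3 and 69.3 TPM in ΔEcad male 7. Without both, it was 0.93 (unadjusted p 0.0661). Cdh13, a cadherin anchored to the membrane by lipid without a cytoplasmic tail, had medians of 5.01 and 6.53 TPM and a log2 fold change of 0.86 (SE 0.38), and 0.61 without those tumours. The 10 catenins and cadherin partners tested had a median of 0.09, and none passed. Jup, plakoglobin, which joins both adherens junctions and desmosomes, had the smallest p among them (0.66, SE 0.55). The 17 epithelial junction genes tested had a median of 1.22, none passed, and 16 had opposite signs in the sexes.

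Clustered gamma protocadherins are adhesion proteins whose isoforms are each made from a variable exon joined to shared constant exons, so their annotated genes overlap and reads can be split between them. Of 20 tested, 4 passed with a positive and 3 with a negative fold change. Pcdhga5 had 1.88 (SE 0.59), Pcdhgb4 2.61 (SE 0.85) and Pcdhgb5 1.64 (SE 0.61). Pcdhga5 was at 0.16, 0.34 and 0.92 TPM in Ecad tumours and 0, 0.605 and 8.14 TPM in ΔEcad tumours, with 7 ΔEcad tumours above and 4 below every Ecad tumour. The ΔEcad tumours thus spread to both sides of the Ecad tumours. The others, named after their values were seen, were Pcdhga12 (0.87) with a positive fold change and Pcdhga1 (-1.14), Pcdhgb7 (-1.60) and Pcdhga9 (-1.61) with a negative one. The direction of Pcdhgb7 and Pcdhga9 turned in limma voom with quality weights.

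In the bombesin and Gq list, 2 of 13 genes tested passed, Grpr and Nmb, the gene of the peptide neuromedin B. Nmb was at 5.34, 12.1 and 25.95 TPM in Ecad tumours and 1.42, 13.3 and 103 TPM in ΔEcad tumours, a log2 fold change of 0.87 (SE 0.41, unadjusted p 0.0436), with 1.53 in males and 0.21 in females. The median over all 13 was 0.18. Esr1, the gene of oestrogen receptor alpha, was at 0.23, 2.01 and 3.83 TPM in Ecad tumours and 0.37, 1.70 and 12.96 TPM in ΔEcad tumours. Only 6 of 16 ΔEcad tumours were above the Ecad median, and the log2 fold change of 0.32 (SE 0.39, adjusted p 0.879 by edgeR) was within its SE. The highest level was in ΔEcad male 5, and the sign turned without it (-0.13). The 7 steroid receptor genes tested had a median of 0.03 and the 4 oestrogen receptor score genes tested a median of 0.12.

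Wnt/beta-catenin targets had a median of -0.21, and 2 of 16 tested passed with a positive fold change. They were Wif1, a secreted inhibitor that binds Wnt proteins (2.65, SE 0.93, median levels 1.16 and 2.33 TPM), and Apcdd1, a membrane inhibitor of Wnt signalling (1.54, SE 0.66, median levels 5.17 and 8.18 TPM). Wif1 had 1.37 in males and 3.93 in females and Apcdd1 0.14 and 2.96. For each, 11 of 16 ΔEcad tumours were above the Ecad median and 4 above every Ecad tumour. With the fibroblast score as a covariate, Wif1 was at 2.66 and Apcdd1 at -0.38. The 5 YAP1 score genes had a median of -0.18, and Ccn1, a matricellular target of YAP1, was at 0.68 (SE 0.44).

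Of 12 genes of epithelial to mesenchymal transition, 3 passed with a positive fold change: Prrx1 (1.90, SE 0.60), Snai1 (1.72, SE 0.60) and Twist2 (1.97, SE 0.72), which encode transcription factors of mesenchyme. Prrx1 was at 0.50, 5.54 and 17.4 TPM in Ecad tumours and 0.93, 7.82 and 164 TPM in ΔEcad tumours. Snai1, a repressor of Cdh1, was at 1.37, 10.2 and 41.0 TPM against 1.11, 17.6 and 533 TPM. The highest levels were again in ΔEcad female 3 (Prrx1, Snai1) and ΔEcad male 7 (Twist2), and without both tumours Prrx1 was at 0.98, Snai1 at 0.34 and Twist2 at 0.51. Fibroblasts also express such genes, and 6 of 10 fibroblast markers passed in the same direction. With the fibroblast score as a covariate Prrx1 was at 1.21, Snai1 at 0.59 and Twist2 at 0.44. That score was itself highest in ΔEcad male 7 (9.60). The part of fibroblasts in these fold changes was not tested. The 6 invasive score genes had a median of 0.48 and none passed, with Wnt5a, a non-canonical Wnt ligand, at 1.41 (SE 0.72). The 5 pigmentation score genes had a median of -0.22, with 0.32 in males and -1.01 in females. No starved-like or anoikis resistance score gene passed, with medians of 0.33 and 0.31. Of the neural crest-like genes, none of 6 passed, and Aqp1, a water channel, had 0.76 (SE 0.37).

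Of 18 cell cycle genes 16 had a positive fold change, with a median of 0.36, 0.41 in males and 0.39 in females, and 2 passed. Rrm2, a subunit of ribonucleotide reductase, was at 3.66, 35.6 and 83.3 TPM in Ecad tumours and 5.77, 35.7 and 364 TPM in ΔEcad tumours (log2 fold change 1.25, SE 0.49). The medians were alike, and 5 ΔEcad tumours were above every Ecad tumour, with 364 TPM in ΔEcad male 2, whose sex label its Y-linked counts go against, and 358 TPM in ΔEcad female 3. Without ΔEcad male 2, Rrm2 was at 0.51 (unadjusted p 0.213), and without ΔEcad male 7 and ΔEcad female 3 at 1.01 (unadjusted p 0.0485). Aurka, a mitotic kinase, had medians of 15.7 and 16.4 TPM and a log2 fold change of 0.83 (SE 0.38), and 0.50 (unadjusted p 0.157) without ΔEcad male 2. Both turned to a negative sign with the opposite-strand measure as a covariate. The 20 interferon and antigen presentation genes had a median of 0.24, the 12 hypoxia and glycolysis genes -0.10 and the 14 MAPK feedback genes -0.09, and none of these passed.

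Whether 1 genotype effect described both sexes was asked with an interaction term. edgeR called 0 genes, with a smallest edgeR adjusted p of 0.0509, and 3131 genes (17.7%) had an unadjusted p under 0.05. Without ΔEcad male 2, ΔEcad male 7 and ΔEcad female 1 edgeR called 0, with a smallest adjusted p of 0.126, while 2955 genes had an unadjusted p under 0.05. With all tumours, DESeq2 called 1225 and limma voom 0. Leaving out 1 tumour gave calls in 10 of 32 cases, with up to 848 genes. Male and female fold changes had opposite signs for 57.9% of genes. Among the genes above, the interaction had an unadjusted p under 0.05 for Grpr, Cdh1, Akr1c14 (0.0097), Krt34 (0.00749), Ivl (0.00285), Sfn (0.0068), Apcdd1 (0.0147) and Amy1 (0.0186), and of 0.633 for Gm37422, 0.886 for Efhd1, 0.762 for Cdh11 and 0.792 for Thy1.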

How the data were processed

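RNA of 32 primary melanomas was sequenced from stranded mRNA libraries. The authors mapped reads with STAR to GRCm38 with GENCODE M13 and deposited raw counts per gene and TPM. Batch correction is described where applicable, without saying whether it was used here; the counts were whole numbers. Symbols and coordinates came from GENCODE M21, which named 50376 of 50600 identifiers. Total counts were 24036333 to 63923086, and floors of 3 counts cover counting error only. The highest correlation between a pair of tumours was 0.962, and none was treated as a duplicate.

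Counts were tested with edgeR 4.0.16 (two-sided quasi-likelihood, robust, TMM, filterByExpr by group) with sex and genotype as terms, and separately with their interaction, which gave the within-sex values. A gene was called where its p adjusted by Benjamini-Hochberg was below 0.05 with a log2 fold change beyond 1 in size. SEs were derived from the test statistic. Scores were mean log2 CPM with a prior count of 1. Named were Cdh1, Grpr, Esr1, the 10 genes of smallest p on each side, and up to 3 genes with the smallest p per list. Members and lists were chosen with earlier results of these data known, and the score lists come from the study. Alternatives used DESeq2 1.42.0, limma 3.58.1, other factors, filters and covariates, and tumours left out. The test was checked on simulated data. R 4.3.3, Python 3.11.15, pandas 2.3.3, numpy 2.4.6 and matplotlib 3.10.9 were used. Some genes of the lists are not reported by name.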

Additional observations from a re-analysis of the deposited data

Results flagged for a closer look

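Each named gene and library measure was examined in each group of 8 tumours, 260 sets in all, for a highest or lowest tumour far from the others of its group. This picked out 37, where a chance rate of about 1 in 20 would give 13. That rate cannot serve as a test here. The genes were named largely for a small p in these data, and some of their fold changes rested on tumours picked out below. Values of different genes in the same tumour are also not independent. No excess over chance is therefore drawn from the 37. Values are log2 CPM unless stated, and no explanation was tested. A value of -5.19 is the floor, given to a gene without counts, and values near it rest on few counts.

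ΔEcad male 7, the tumour with Sox10 at 0.49 TPM, stood apart from the other ΔEcad males for 10 genes. It was the highest for Dlk1 (8.50), Pcdh19 (5.60), Thy1 (10.65), Pdgfra (9.21) and Twist2 (7.62). It was the lowest for Gm26658 (-5.19), Gpr143 (-4.29), Pmel (1.81), Mitf (4.55) and Dct (1.79). ΔEcad male 2, the library without Y-linked counts, was the highest for Rrm2 (8.94) and the lowest for Gm26648 (-5.19).

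ΔEcad female 3 stood apart from the other ΔEcad females in both directions. It was the highest for Pcdh19 (6.31), Foxc2 (4.58), Ccn1 (7.69) and Snai1 (7.99). It was the lowest for Lum (-3.18), Cldn5 (-5.19), Cdh13 (0.12), Nmb (-1.48), Aqp1 (2.68) and Tomt (-4.38). Other ΔEcad females stood apart for single genes: female 5 for Esr1 (1.05, lowest) and Pcdhgb4 (4.35, highest), female 4 for Pcdhgb5 (3.20, highest) and female 8 for Gm26811 (-5.19, lowest). The mitochondrial share of counts was 8.71% in ΔEcad female 7, against 1.75% to 4.56% in the other 7.

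Among Ecad tumours, Ecad female 3 was the highest for Amy1 (12.89), Bpifa2 (12.83) and Krt33a (-4.38). Krt33a was at 0.02 TPM there and at 0 TPM in the other Ecad females. Ecad female 3 was also the lowest for Rrm2 (2.16) and Aurka (2.16), and Ecad female 7 was the highest for Ncr1 (-1.999). Ecad male 7 was the lowest for Sh3rf3 (-5.19), Cldn5 (2.25) and Apcdd1 (-1.31), and Ecad male 8 was the highest for Foxc2 (1.09).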

How the results depend on the processing

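Under other processing choices, listed with earlier results of these data known, the count of genes higher in ΔEcad tumours was 31 with DESeq2, 2 with the mean of the within-sex effects, and 0 with RLE or upper quartile factors, over 1 CPM in at least 16 tumours (where Grpr was not tested), the keratinocyte and melanocytic scores as covariates, the replicate block, or without ΔEcad male 2, ΔEcad male 7 and ΔEcad female 1. The count of lower genes was 14 with DESeq2, 1 with limma voom and 2 without a filter. Of the alternatives added after seeing the data, leaving out ΔEcad male 7 and ΔEcad female 3 or the fibroblast score as a covariate gave 0 higher, and the opposite-strand measure gave 128 higher and 108 lower. Without 1 tumour, higher genes were 0 to 1 and lower genes 0. The interaction count was 1225 with DESeq2 and 0 to 848 without 1 tumour (848 without ΔEcad male 3).

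Grpr kept its direction in every fit that tested it. DESeq2 (adjusted p 4.37e-10) and limma voom called Grpr, as did edgeR without a filter, a sex term or robust estimation. Grpr was also called with the mean of the within-sex effects and with the opposite-strand measure. Its log2 fold change was 7.10 (RLE), 7.07 (upper quartile), 6.83 (marker scores), 6.69 (fibroblast score), 7.27 (without the 3 tumours) and 6.56 (without the pair), each with an adjusted p over 0.05, and 6.78 to 7.53 without 1 tumour. Cdh1 was at -1.98 to -1.48 without 1 tumour. Replicate numbers did not pair the tumours: same-numbered pairs correlated at -0.50 to 0.29, 7 of 16 over 0.1 and 1 best with its own number. With the replicate block Grpr was at 6.75 and Cdh1 at -2.30.

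Signs turned for Esr1 (-0.0588 in limma voom, -0.280 with the opposite-strand measure, -0.125 to 0.450 without 1 tumour, negative without ΔEcad male 5), Amy1 (0.0282 in DESeq2, -5.19 to 0.0762 without 1 tumour, positive without Ecad female 3), Pcdhgb7 (0.0262) and Pcdhga9 (0.19) in limma voom, Pdgfra (-0.30), Cdh13 (-0.0338) and Apcdd1 (-0.38) with the fibroblast score, and Rrm2 (-0.50), Aurka (-0.17) and Pcdhga9 (0.55) with the opposite-strand measure. The cause was not tested.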

Other observations

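Gene classes differed in the share of members with an unadjusted p under 0.05 in the pooled comparison. Of 15081 protein-coding genes, 764 had a positive and 256 a negative fold change. Of 381 genes in the annotation class TEC, which holds unverified transcripts, 3 had a positive and 51 a negative one, and of 519 antisense genes 17 and 33. The 47 sense intronic and 48 snoRNA genes had 0 positive and 10 and 8 negative. Processed pseudogenes went the other way, with 53 positive and 6 negative of 450. Their share of counts stood apart in ΔEcad males 1 and 2, at 2591 and 2100 CPM, against 600 to 1176 CPM in the other 30 tumours of both genotypes. These libraries also had the lowest mitochondrial shares, 0.256% and 0.891%, and the part of either in that count was not tested. Immunoglobulin variable genes, which are expressed by B and plasma cells, had 0 positive and 8 negative of 28 and a median log2 fold change of -2.60. That median was 0.60 in males and -5.25 in females, with opposite signs in 17 of 28, so it is no common value of both sexes. The mean log2 CPM of the B and plasma cell list was 3.60 to 3.96 in Ecad females 2, 6 and 7 and at most 1.30 in the other Ecad tumours.

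With the opposite-strand measure as a covariate, added after seeing the data, edgeR called 236 genes, 217 of them protein-coding, and 3849 had an unadjusted p under 0.05. Among named genes, Akr1c14 was then at 2.76, Retnla at 4.13, Ncr1 at 3.51 and Cdh13 at 1.58, all called. The measure differs between the genotypes, so these calls are given as values only.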
